A study of Mus musculus with 12 samples.

Results

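Tpp1 and 8 other genes of the neuronal ceroid lipofuscinoses were followed through 12 poly(A) RNA-seq libraries of mouse cortex. The 9 genes are Tpp1, Ppt1, Cln3, Cln6, Cln8, Mfsd8, Ctsd, Grn and Kctd7, found by their symbols among 41388 genes in the deposited table. All 9 were among the 17441 genes with enough counts to be tested. Tpp1 was selected on its lower counts in the knockout described next, so its values in that contrast, and in any contrast that uses the same libraries, are given as a description with no test. The other 8 were taken as genes of the same disease group.

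The mice were adults on a C57Bl/6 background, and each library came from its own animal. Grin1 encodes the subunit that NMDA-type glutamate receptors share, and its exon 5 is an alternative cassette. Mice labelled Knock-in carried the genotype Grin1-exon5+/+, in which exon 5 is constitutive (KI), and mice labelled Knock-out carried Grin1-exon5-/- (KO). Each line had its own wild-type mice, called KI_WT and KO_WT here, and each of the 4 groups held 3 libraries. The labels give no sex and no founder or clone for either line, and name cortex as the tissue without saying which area. No treatment is named for any group.

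The neuronal ceroid lipofuscinoses are inherited lysosomal storage disorders in which autofluorescent lipopigment builds up in neurons and other cells, with loss of vision, seizures and decline. Their genes act at several steps of lysosomal function. Soluble enzymes such as TPP1, PPT1 and cathepsin D are made in the endoplasmic reticulum, handed on by CLN6 and CLN8, sorted to the lysosome and activated in its acid interior, while CLN3 and MFSD8 sit in the membranes of lysosomes and late endosomes. Many lysosomal genes carry a short palindrome near their start, the CLEAR element, which the transcription factor TFEB and its relatives bind.

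The sequences around the start sites are shown first because they separate the members by whether that palindrome is near the start. RefSeq promoter windows (build GRCm38.p6), which run from 250 bases before to 50 bases after a start, were at hand for 8 of the 9 genes, in 9 windows. Cln8 had no entry. The CLEAR core TCACGTGA, searched on both strands, was in the windows of Cln3 and Ctsd, 2 of 8 genes, and in 0.974% of all 32851 windows. The 30-base stretches around these sites are given 5′ to 3′ on the strand of the gene, with the core in capitals.

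Ctsd, chr7:142387908-142387937, minus strand: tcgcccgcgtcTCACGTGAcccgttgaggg
Cln3, chr7:126583340-126583369, minus strand: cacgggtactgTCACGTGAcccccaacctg

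The core began 99 bases before the RefSeq start of the Ctsd window and 122 bases before that of the Cln3 window, 1 of 2 windows for Cln3. Both RefSeq starts lie inside the longer gene spans of GENCODE M21 given further on, so both sites fall within the annotated genes there. The windows of Tpp1 and Ppt1 held neither the core nor the shorter E-box CACGTG that lies inside it. Those of Cln6, Mfsd8, Grn and Kctd7 held neither as well. The E-box was in the windows of 2 of 8 genes, again Cln3 and Ctsd, and in 7.15% of all windows. After the Tpp1 window had been read, the related motif TCATGTGA (its reverse complement is TCACATGA), known as the M-box, was searched as well. It was in the windows of Tpp1, Ppt1 and Grn, 3 of 8 genes, and in 0.986% of all windows. Nothing is read from the Tpp1 match, because the motif was chosen with that window known. Tpp1 held 2 copies within the first 30 transcribed bases, and Ppt1 held 1 copy just after its RefSeq start, shown here in capitals.

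Tpp1, chr7:105752206-105752235, minus strand: atgcTCATGTGActtaTCACATGActacag
Ppt1, chr4:122836227-122836256, plus strand: acagtccccgcggTCATGTGAttgctaaga

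The first base shown for each gene is its RefSeq start. Counted from there, the Tpp1 copies begin at positions 5 and 17 and the Ppt1 copy at position 14. In GENCODE M21 Ppt1 starts at 122836242, inside this copy, which lies at 122836240 to 122836247. The M-box of Grn began 211 bases before its RefSeq start. The GC box GGGCGG (or CCGCCC) was in the windows of 6 of 8 genes, all but Tpp1 and Ppt1, and in 35.7% of all windows. A match describes letters in a window and is not a measured binding site. The 250 bases upstream of Tpp1, the gene of the 9 that was selected on its lower counts in KO, are printed below. None of them is capitalised because none of the motifs searched was found in them.

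Tpp1 upstream, chr7:105752236-105752485, minus strand: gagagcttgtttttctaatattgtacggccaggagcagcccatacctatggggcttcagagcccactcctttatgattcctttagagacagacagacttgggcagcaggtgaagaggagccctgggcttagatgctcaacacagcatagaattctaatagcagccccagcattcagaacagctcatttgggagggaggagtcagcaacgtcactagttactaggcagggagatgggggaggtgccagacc

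The libraries held 31790970 to 36514024 counts and 21927 to 22809 detected genes. Levels are given in CPM, counts scaled to a common library total, with TMM factors that correct for library composition, and levels are compared between genes only as RPKM, which also divides by gene length. Libraries of a group differed by far more than counting error, 13.6 to 73.7 times the sampling variance over 12 pairs, so none was a copy of another. Libraries differed in the markers of tissue next to cortex: summed choroid plexus markers ran from 18.1 to 1898 CPM and olfactory bulb markers from 5.86 to 290 CPM. Summed neuron markers were at 4697 to 5877 CPM in every library.

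By length-corrected level the 9 genes fell in a wide range. Ctsd, which encodes the aspartic protease cathepsin D, was at a mean of 141.8 RPKM (SD 12.8, n = 12 libraries), above 98.6% of the genes tested. Ppt1, a thioesterase that removes fatty acids from proteins, was at 30.6 (SD 1.32), and Tpp1, a serine protease that removes tripeptides from the amino end of peptides, at 21.1 (SD 4.45). Grn, the precursor of the granulins, was at 10.7 RPKM (SD 1.25). Below these came the presumed lysosomal transporter or channel Mfsd8 at 6.30 RPKM, the endoplasmic reticulum protein Cln8 at 3.99, Kctd7, an adaptor of a cullin ubiquitin ligase, at 3.02, the endoplasmic reticulum protein Cln6 at 2.74 and the membrane protein Cln3 at 1.81.

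Neighbours in that order did not overlap in any library, with 2 exceptions. The ranges of Cln8 and Kctd7 overlapped, although Cln8 was higher in 12 of 12 libraries. Those of Kctd7 and Cln6 overlapped too, and Kctd7 was higher in 9 of 12. The 3 soluble enzymes and Grn thus stood above the membrane and endoplasmic reticulum members in every library.

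**Figure D1:**
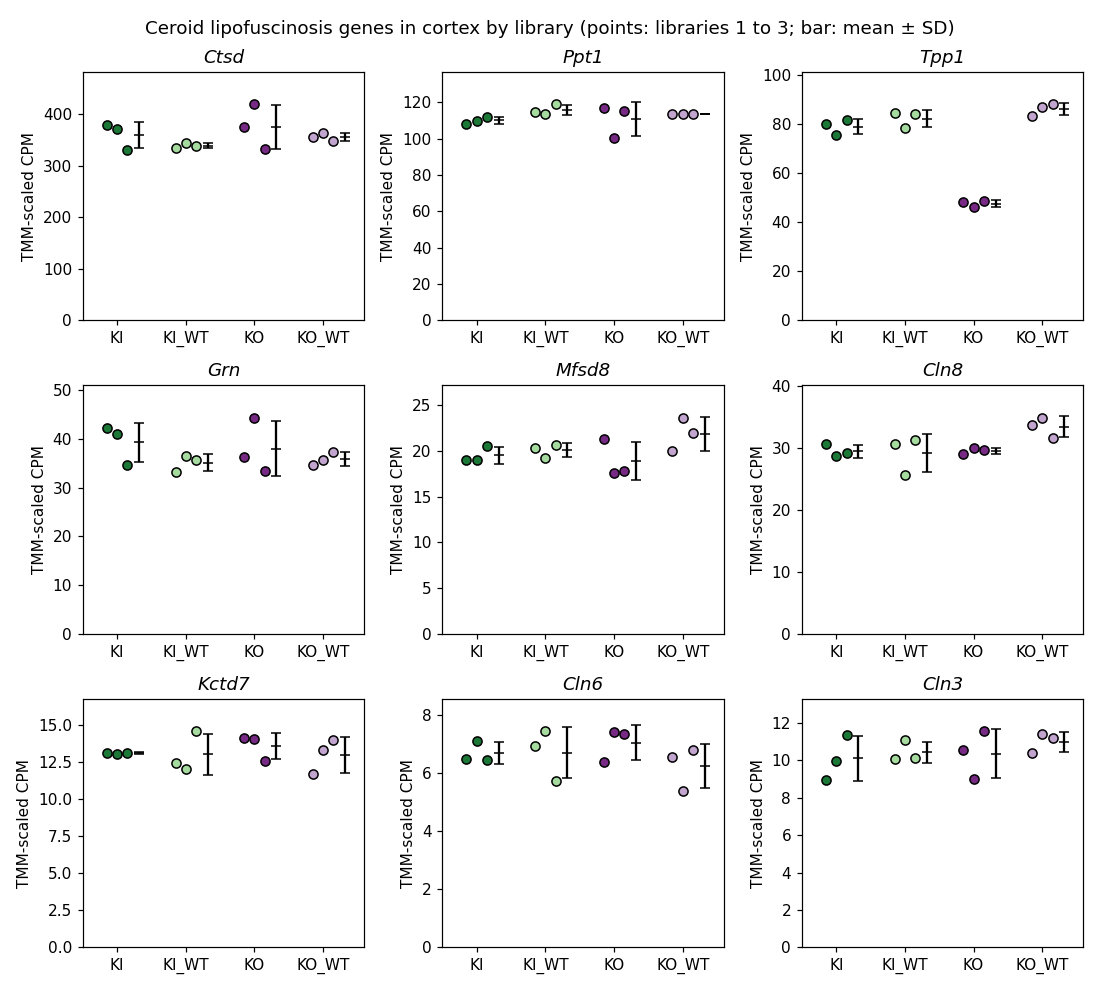
TMM-scaled CPM of the 9 genes in each of the 12 libraries, in 1 panel per gene; points are libraries, grouped as KI, KI_WT, KO and KO_WT, and bars are group means. The 3 KO libraries of Tpp1 sit at 46.1 to 48.6 CPM, below the other 9 at 75.6 to 88.2, and no other panel shows such a gap.

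Tpp1 had 48.3, 46.1 and 48.6 CPM in KO 1, KO 2 and KO 3. In the 3 KO_WT libraries it had 83.4, 87.2 and 88.2 CPM. The KO libraries all lay below the wild types of their line, with a wide gap between the groups. The counts behind these levels were 1764, 1541 and 1759 in KO and 2647, 2903 and 2931 in KO_WT. The group means were 47.7 ± 1.37 and 86.3 ± 2.55 CPM (SD, n = 3 each), a ratio of 0.553. On the log2 scale the difference was -0.86 with an SE of 0.062 and a 95% interval of -0.99 to -0.72, given as a description since this contrast chose the gene.

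In the other line Tpp1 had 80.0, 75.6 and 81.6 CPM in KI and 84.4, 78.3 and 84.1 CPM in KI_WT. These groups overlapped and lay in the range of the KO_WT libraries or a little below it. Over the 9 libraries outside KO the median was 83.4 CPM, with a coefficient of variation of 4.96%. KI against KI_WT is a contrast in which Tpp1 was not chosen, and there the log2 difference was -0.057 (SE 0.061, 95% interval -0.19 to 0.076). This difference did not pass edgeR's quasi-likelihood test (adjusted p = 0.873). The interval leaves room for a modest difference in either direction, and not for one of the size seen in KO.

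The deposited RPKM values rest on the same counts, so much the same picture was bound to appear. Tpp1 was at 14.2, 13.5 and 13.8 RPKM in KO, 22.9, 24.5 and 25.0 in KO_WT, 23.1, 22.9 and 23.3 in KI, and 23.5, 21.9 and 24.4 in KI_WT. Again only the 3 KO libraries stood apart. Tpp1 was selected on the KO and KO_WT libraries, so this is a description and not a separate check.

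Comparisons that share the KO or KO_WT libraries are given side by side. Between the mutants Tpp1 was 1.66 times higher in KI than in KO, a log2 difference of 0.73 (SE 0.062, 95% interval 0.60 to 0.87). Between the wild types of the lines the log2 difference, KI_WT minus KO_WT, was -0.068 (95% interval -0.20 to 0.065). The effect in the knock-in line minus the effect in the knockout line was 0.80 (SE 0.087, 95% interval 0.61 to 0.99). Within a group Tpp1 was among the least variable genes: its pooled standard deviation was 0.0516 on the log2 scale, and 1.16% of tested genes had a lower one. The KO and KO_WT libraries on which Tpp1 was selected enter this value, so it is a description too. The share is over genes of all levels, and Tpp1 was above 84.4% of them by RPKM.

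A ratio within each library takes out the scaling between libraries. Tpp1 counts as a percentage of Ppt1 counts, the other abundant enzyme of the set whose level was steady, were 41.4%, 46.0% and 42.2% in KO 1, KO 2 and KO 3. In the other 9 libraries the ratio was 68.8% at the lowest, 73.5% at the median and 77.6% at the highest. As a percentage of the summed counts of the other 8 genes, Tpp1 made up 7.19% to 8.69% in KO and 12.6% to 15.1% elsewhere. The KO libraries were lower by both measures, without overlap. Both ratios use the Tpp1 counts of the libraries on which Tpp1 was selected, so they are a description too.

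**Figure D2:**
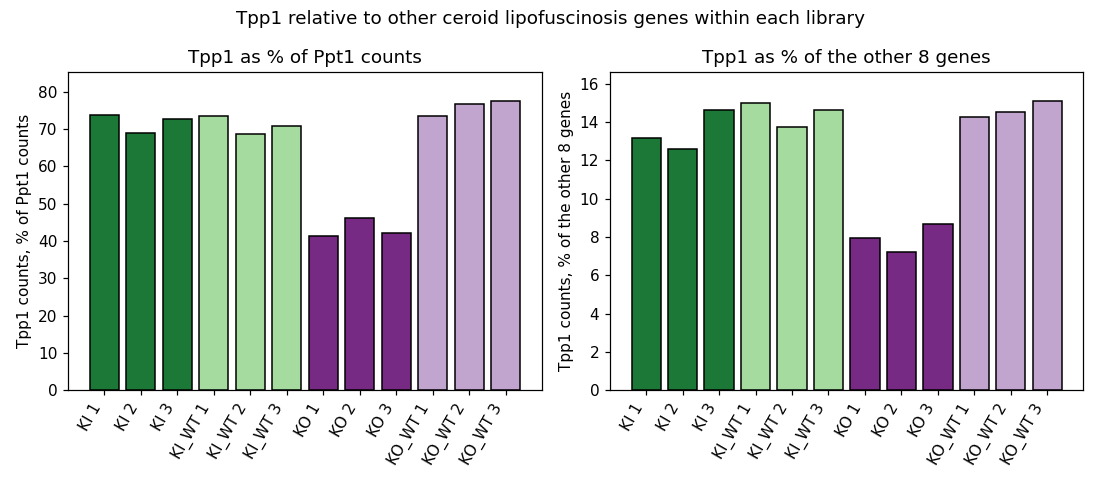
Tpp1 counts in each library as a percentage of Ppt1 counts (left) and of the summed counts of the other 8 genes (right). Each bar is 1 library, coloured by group. KO lies at 41.4% to 46.0% of Ppt1 and 7.19% to 8.69% of the 8 genes, against at least 68.8% and 12.6% in the other 9 libraries. Tpp1 was selected on the KO and KO_WT libraries, so the gap is a description.

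The animal numbers in the library titles fall in a low and a high range, whose meaning the labels do not give. In the low range KO 1 had 48.3 CPM of Tpp1 and KO_WT 2 and KO_WT 3 had a mean of 87.7, a ratio of 0.551. In the high range KO 2 and KO 3 had a mean of 47.3 CPM and KO_WT 1 had 83.4, a ratio of 0.568. Xist, the transcript made from the inactive X chromosome, was at 570 to 856 CPM in 5 libraries, 2 of them KO (KO 1 and KO 2) and 0 of them KO_WT, and under 1 CPM in the other 7. The remaining library of the knockout with low Xist, KO 3, had 48.6 CPM of Tpp1, against the mean of 86.3 in KO_WT, a ratio of 0.563. The ratio within each of these splits was close to that over the groups, with 1 to 3 libraries on a side. The splits use the libraries on which Tpp1 was selected, and those groups did not overlap, so a low ratio in each was fixed in advance. These ratios are a description and do not test a part of the Xist level or the animal number range.

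Summed markers of some cell types were also lower in KO than in KO_WT, although no single marker passed edgeR's test. The summed microglia markers were at 424 to 445 CPM in KO and 464 to 516 in KO_WT, without overlap, and 7 of the 8 markers were lower in KO while 0 passed the test. Summed astrocyte markers were at 2424 to 2548 CPM in KO and 2733 to 2798 in KO_WT, and endothelial markers at 211 to 269 and 274 to 318, again without overlap, with 5 of 6 and 5 of 5 markers lower in KO. Oligodendrocyte markers overlapped, at 4677 to 10351 and 8694 to 11177 CPM, and 6 of 6 were lower. In KI and KI_WT the astrocyte sums were at 2338.5 to 2532 and 2380 to 2559 CPM, so KO lay among them and KO_WT above them. Microglia sums were at 456 to 470 in KI and 421 to 505 in KI_WT, whose range held the KO values. Endothelial sums were at 266 to 282 in KI, overlapping KO, and 275 to 327 in KI_WT, above KO. Oligodendrocyte sums, at 7700 to 9187 and 5847 to 9104, overlapped KO. In bulk tissue, fewer cells of a type and less RNA per cell cannot be told apart. None of the markers in these cell type lists was at 0, and their part in the Tpp1 difference was not tested. When scores of the regional markers (olfactory bulb, thalamus, choroid plexus) were added as covariates, the Tpp1 log2 difference was -0.89. Its SE rose from 0.062 to 0.10, and Tpp1 was no longer called in edgeR's test. These scores hold none of the glial or endothelial markers above.

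The other enzyme genes and Grn did not follow Tpp1 in the knockout. Ppt1 had 117, 100.1 and 115 CPM in KO and 113, 114 and 114 in KO_WT, so that 1 KO library lay below and 2 above the wild types. Its log2 difference was -0.04 (SE 0.066). Ctsd had 374, 419 and 331 CPM in KO and 355, 363 and 347.1 in KO_WT, a log2 difference of 0.078 (SE 0.089). The spread of Ctsd in KO, with a standard deviation of 43.6 CPM, was wider than in KO_WT at 7.95. Grn, whose protein travels to the lysosome and is cut into granulins there, had 36.4, 44.4 and 33.4 CPM in KO and 34.7, 35.7 and 37.4 in KO_WT, a log2 difference of 0.083 (SE 0.11). In both Ctsd and Grn KO 2 was the highest of the 12 libraries and KO 3 among the lowest, so the groups overlapped. Without KO 2 the log2 differences of Ctsd and Grn were -0.0067 and -0.039, and without KO 3 they were 0.16 and 0.17.

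Cln8 and Mfsd8 had lower means in KO than in KO_WT. Cln8, which escorts newly made lysosomal enzymes out of the endoplasmic reticulum, had 29.0, 29.9 and 29.7 CPM in KO and 33.8, 34.9 and 31.5 in KO_WT. The groups did not overlap, and the log2 difference was -0.18 (SE 0.083, 95% interval -0.36 to 0.0046). Its adjusted p in edgeR's quasi-likelihood test was 0.678, so the difference did not pass. Mfsd8 had 21.3, 17.6 and 17.8 CPM in KO and 19.9, 23.6 and 21.9 in KO_WT, with 1 KO library inside the wild-type range. Its log2 difference was -0.21 (SE 0.095, 95% interval -0.41 to 0.00014; adjusted p = 0.678 in the same edgeR test).

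The remaining 3 genes were at low levels. Cln3, whose loss causes the juvenile form of the disease, had 10.5, 8.97 and 11.5 CPM in KO and 10.4, 11.4 and 11.2 in KO_WT. Cln6, the partner of Cln8 in handing on enzymes, had 6.36, 7.42 and 7.35 CPM in KO and 6.55, 5.38 and 6.80 in KO_WT. Kctd7 had 14.1, 14.1 and 12.6 CPM in KO and 11.7, 13.3 and 14.0 in KO_WT. The groups overlapped for all 3 genes, with log2 differences of -0.09 (SE 0.12), 0.17 (SE 0.14) and 0.063 (SE 0.10).

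Of the 8 genes other than Tpp1, 4 had higher and 4 had lower means in KO, with a median log2 difference of 0.013 beside 0.0076 over all genes tested. Calls at an adjusted p under 0.05 in edgeR's quasi-likelihood test numbered 1 among the 9 genes, which was Tpp1, and 1 among all 17441, or 0.00573%; without KO 3, 6 genes were called over all. Nothing is read from that count, because this contrast chose Tpp1. None of the other 8 passed in edgeR, 0 had an unadjusted p under 0.05, and 0 passed in DESeq2 or limma voom. Of the 8 genes other than Tpp1, 1 had groups without overlap, Cln8, against 12.4% of all genes tested. Tpp1 was also without overlap, and nothing is read from that in the contrast that chose it.

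**Figure D3:**
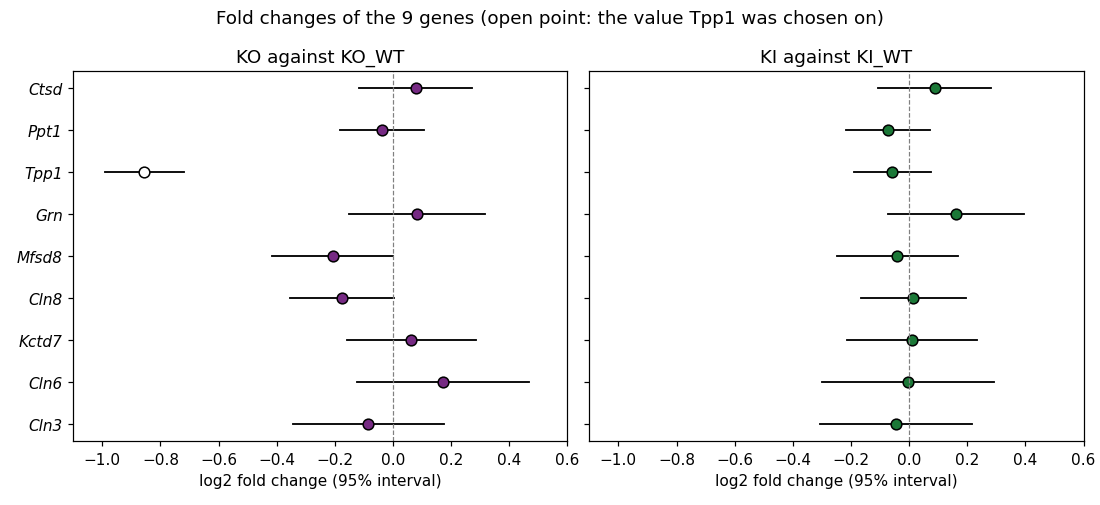
Log2 fold changes of the 9 genes in KO against KO_WT and in KI against KI_WT, with 95% intervals from edgeR; genes are ordered by mean RPKM and the vertical line marks no difference. Tpp1 lies at -0.86 in the knockout line and -0.057 in the knock-in line, while the intervals of the other 8 genes include 0 in both lines.

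In the knock-in line Ppt1 had 108, 110 and 112 CPM in KI and 115, 114 and 119 in KI_WT. The groups did not overlap, yet the log2 difference was small, -0.074 (SE 0.066; adjusted p = 0.846 in edgeR's quasi-likelihood test). Ctsd had 378, 370.4 and 331 CPM in KI and 334, 343 and 338 in KI_WT, with 2 KI libraries above and 1 below the wild types, a log2 difference of 0.088 (SE 0.089). In Grn 2 KI libraries lay above the wild types and 1 among them, at 42.2, 41.0 and 34.7 CPM in KI against 33.2, 36.5 and 35.8 in KI_WT, a log2 difference of 0.16 (SE 0.11, 95% interval -0.072 to 0.39).

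Cln8 had 30.7, 28.7 and 29.1 CPM in KI and 30.6, 25.6 and 31.3 in KI_WT. Mfsd8 had 18.99 CPM in KI 1, almost the same in KI 2 and 20.6 in KI 3, against 20.3, 19.2 and 20.7 in KI_WT. Cln3 had 8.94, 9.98 and 11.4 CPM against 10.1, 11.1 and 10.1. These 3 genes overlapped between the groups, as did the next pair. Cln6 had 6.48, 7.10 and 6.42 CPM in KI and 6.92, 7.43 and 5.73 in KI_WT, and Kctd7 had 13.2, 13.1 and 13.2 in KI and 12.4, 12.1 and 14.6 in KI_WT. The log2 differences of the 5 genes ran from -0.045 for Cln3 to 0.014 for Cln8.

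Calls in KI against KI_WT numbered 0 among the 9 genes and 0 among all genes tested, or 0%, in edgeR's quasi-likelihood test, with 1214 genes at an unadjusted p under 0.05, of which 0 were members. DESeq2 called 2 genes and limma voom 0, and no member was among them. Of the 8 genes other than Tpp1, 4 were higher and 4 lower in KI, with a median of 0.0028 beside -0.0054 over all genes. Groups without overlap were found for 1 of the 9, Ppt1, against 12.2% of all genes.

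Between KI and KO the 8 genes differed by -0.078 to 0.048 on the log2 scale, and the smallest adjusted p among them was 0.969 in edgeR's test. The 1 gene called in that comparison, 0.00573% of those tested, was Tpp1, which was also the 1 member without overlap, against 10.2% of all genes. Nothing is read from either count, because the KO libraries chose Tpp1. Between KI_WT and KO_WT, edgeR called 0 genes, or 0%, with 1.96% of genes at an unadjusted p under 0.05; DESeq2 called 1 gene, no member, and limma voom 0. Cln8 and Ctsd were without overlap there, 2 of 9 against 7.31% of all genes. Cln8 was lower in KI_WT than in KO_WT by a log2 difference of -0.19 (SE 0.083, 95% interval -0.37 to -0.013), with an unadjusted p of 0.0378 in edgeR's quasi-likelihood test, and did not pass after adjustment. The KO_WT libraries of Cln8 were thus the highest of the 4 groups at 33.4 ± 1.70 CPM (SD, n = 3), and KI, KI_WT and KO were at 29.5, 29.2 and 29.6.

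For the effect in the knock-in line minus the effect in the knockout line, edgeR called 1 gene, Tpp1, or 0.00573% of those tested. Nothing is read from that call, since the contrast holds the libraries on which the gene was selected. The other 8 genes ran from -0.18 for Cln6 to 0.19 for Cln8, and the smallest adjusted p among them was 0.918 in the same test. These comparisons share libraries with those above and repeat part of their information.

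Levels of the members also varied together between libraries. Over the 12 libraries the log2 CPM of Ctsd and Grn had a Pearson r of 0.86 and a Spearman rho of 0.76, and r was 0.66 without the 2 libraries farthest from the median of Ctsd. Ppt1 went the other way, with r = -0.82 (rho = -0.59) against Grn and r = -0.78 (rho = -0.47) against Ctsd, and these r values shrank to -0.48 and -0.23 without the 2 farthest libraries. KO 2 was the highest library for Ctsd and Grn and the lowest for Ppt1, so both relations with Ppt1 rest in part on it. Cln6 and Mfsd8 had r = -0.78 and rho = -0.73. All are descriptions over libraries that share group, scaling and tissue makeup.

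**Figure D4:**
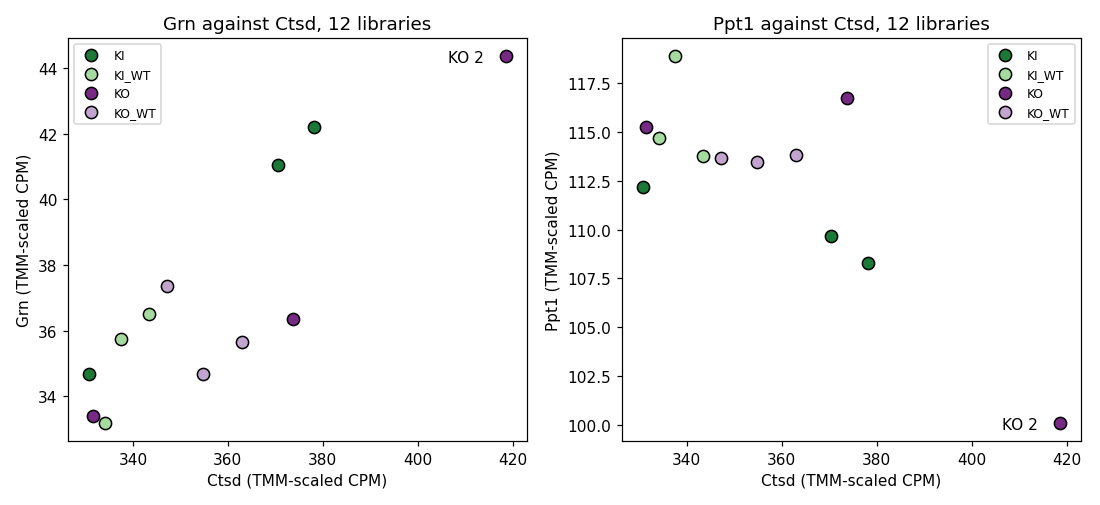
TMM-scaled CPM of Grn against Ctsd (left) and of Ppt1 against Ctsd (right). Each point is 1 of 12 libraries, coloured by group. KO 2 lies at the top right of the left panel and at the bottom right of the right panel. On log2 CPM, r is 0.86 for the left pair and -0.78 for the right pair.

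By Pearson r, the measure of likeness used, Mfsd8 was the member closest to Tpp1, with r = 0.54 and rho = 0.69 over 12 libraries and r = 0.85 over the 9 libraries outside KO. By rho Cln8 was slightly closer, at 0.70, with r = 0.31 over 12 libraries and 0.72 over the 9. Mfsd8 ranked 983rd and 234th among the genes tested by these measures, so many genes were closer. Over 12 libraries the 5 closest were RP23-326F22.4 (r = 0.89), Abca9 (0.88), Specc1l (0.87), Socs7 (0.87) and Il6st (0.87). RP23-326F22.4 was under 0.4 CPM in every group mean, and its rho was 0.53. Abca9, an ABC-family lipid transporter, had means of 14.0 and 19.1 CPM in KO and KO_WT. Its log2 difference of -0.45 (SE 0.086) did not pass edgeR's quasi-likelihood test (adjusted p = 0.678). These 5 genes were found by an r that includes the KO libraries on which Tpp1 was selected, which favours genes lower in KO. The Abca9 difference is therefore a description. Over the 9 libraries outside KO, r was 0.84 for Abca9, 0.85 for Il6st, 0.76 for Socs7, 0.63 for Specc1l and 0.0055 for RP23-326F22.4.

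Over the 9 libraries outside KO the 5 closest were Mob4 (r = 0.97), Fam120c (0.96), Utp6 (0.96), Lyst (0.95) and Rprd1a (0.95). These are the highest r values among 17441 genes over only 9 libraries, so values this high can come from that choice. Lyst encodes a regulator of lysosome size and trafficking, and a link to Tpp1 was not tested. Mob4 had an r of -0.25 over all 12, and its level was 96.3 CPM in KO and 94.4 in KO_WT. None of the 5 was among the closest 5 over 12 libraries.

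Tpp1 lies on chromosome 7 of build GRCm38 at 105744811 to 105752235 on the minus strand (GENCODE M21), with 13 exons in its longest coding transcript, and no annotated gene overlaps it. Of the genes that start within 500 kb, 20 were tested, and 8 were higher and 12 lower in KO, with a median log2 difference of -0.031. None was called in edgeR, and 3 of the 20 were without overlap, near the share of 12.4% over all genes tested. The nearest on either side were Taf10, 0.450 kb away, which encodes a subunit of the general transcription factor TFIID, and Dchs1, 0.755 kb away, a large protocadherin. Taf10 had means of 44.3 CPM in KO and 45.4 in KO_WT, a log2 difference of -0.036 (SE 0.063). Dchs1 was at 11.5 and 12.8 CPM, a log2 difference of -0.16 (SE 0.10).

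Smpd1, which encodes the lysosomal acid sphingomyelinase and lies further off, had means of 85.7 CPM in KO and 82.4 in KO_WT (log2 difference 0.056, SE 0.088). It is named for its lysosomal role after its values were seen. Of the 20 neighbours 13 had a mean of at least 1 RPKM, and these ran from -0.28 to 0.19. The lowest of all was Gm15645 at -0.62 (SE 0.39), a gene at 0.640 CPM in KO_WT. In the knock-in line 9 were higher and 11 lower, and 0 were called in edgeR.

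**Figure D5:**
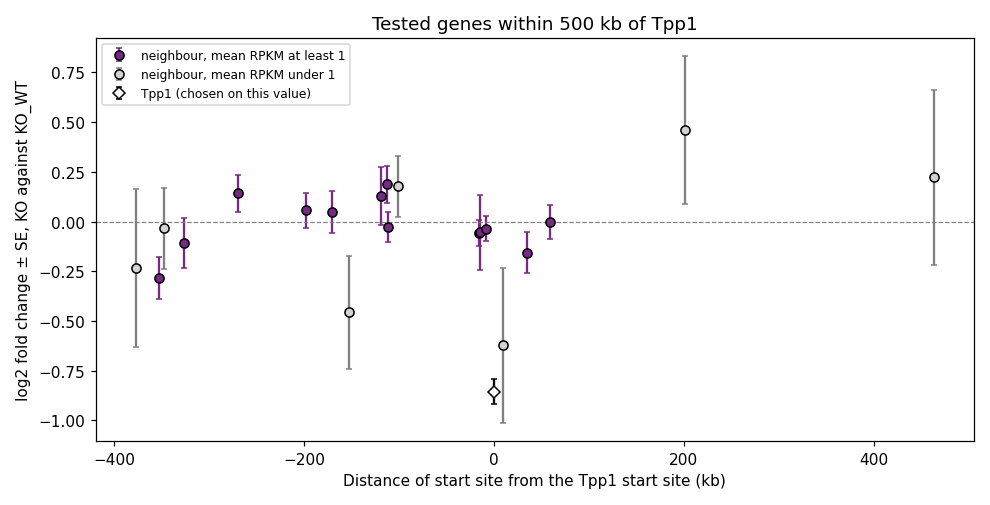
Log2 fold change of Tpp1 and the 20 tested genes around it in KO against KO_WT, by distance in kb from the Tpp1 start. Bars are 1 SE to either side. Tpp1 lies at -0.86 in the knockout line and its 13 neighbours with at least 1 RPKM lie between -0.28 and 0.19.

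The other members lie elsewhere, Ppt1 on chromosome 4, Cln6 on 9, Cln8 on 8, Mfsd8 on 3, Grn on 11 and Kctd7 on 5, with Cln3 and Ctsd also on chromosome 7. Cln3 lies at 126571207 to 126585817 and Ctsd at 142375911 to 142388038, both on the minus strand and far from Tpp1. Ppt1, Cln3 and Grn each share bases with a tested gene on the opposite strand, and without a stated strand setting reads in the overlap could be counted for either. Ppt1 shares 129 bp with Cap1, Cln3 shares 876 bp with Apobr, and Grn shares 68 bp with Fam171a2. Ctsd also overlaps an annotated gene on its own strand, which was not analysed here. Their log2 differences in KO were -0.13 for Cap1, -0.60 for Apobr and -0.092 for Fam171a2, and none passed (adjusted p of 0.744, 0.678 and 0.817 in edgeR's test).

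The wider lysosomal pathway was described from 8 lists of genes, in which 0 genes were called by edgeR in KO against KO_WT or in KI against KI_WT. Of 5 further ceroid lipofuscinosis genes, 3 were higher and 2 lower in KO (median 0.024). The one with the smallest p was Dnajc5, a synaptic vesicle co-chaperone, which averaged 404 CPM (SD 23.1, n = 3) in KO and 434 CPM (SD 17.3, n = 3) in KO_WT, a log2 difference of -0.11 (SE 0.075). In KI 4 were higher and 1 lower (median 0.12), led by the cysteine protease Ctsf at 0.19 (SE 0.092).

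Among 15 lysosomal proteases and peptidases, the class of Tpp1 itself, 9 were higher and 6 lower in KO (median 0.016). Dpp7, a dipeptidyl peptidase, averaged 19.9 CPM (SD 0.486, n = 3) in KO and 17.4 CPM (SD 1.63, n = 3) in KO_WT, a log2 difference of 0.20 (SE 0.081). In KI 10 were higher and 5 lower (median 0.073), and Prcp, a carboxypeptidase, was at 10.97 ± 0.713 CPM against 13.6 ± 1.24, a log2 difference of -0.31 (SE 0.098). Among 33 other hydrolases 17 were higher and 16 lower in KO (median 0.0069), led by the sulfatase Arsb at -0.18 (SE 0.075). In KI 26 of these were higher and 7 lower (median 0.075), 9 of the 33 were without overlap, against 12.2% of all genes tested, and Arsa, the sulfatase that acts on myelin sulfatide, was at 0.29 (SE 0.10). Summed thalamus markers were also higher in KI, at 243 to 381 CPM against 194 to 206 in KI_WT, and their part in the hydrolase values was not tested. Each of these values missed the threshold, with adjusted p of at least 0.678 in KO and 0.705 in KI in edgeR's test.

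Of 20 lysosomal membrane proteins 13 were higher and 7 lower in KO (median 0.037), and 9 were higher and 11 lower in KI (median -0.011). Scarb2, the receptor that carries glucocerebrosidase to the lysosome, averaged 81.7 CPM (SD 8.08, n = 3) in KO and 94.8 CPM (SD 3.21, n = 3) in KO_WT, a log2 difference of -0.22 (SE 0.073). Lamp2 was at -0.16 (SE 0.067) in KI. Of 18 subunits of the V-ATPase, the pump that acidifies the lysosome, 14 were higher and 4 lower in KO (median 0.13) and 6 were without overlap, against 12.4% of all genes tested. In the same contrast the thalamus and choroid plexus markers had higher means in KO, 6 of 6 each, and the oligodendrocyte markers lower ones, 6 of 6. None of them passed edgeR's test, and their part in the V-ATPase values was not tested. The subunit with the smallest p went the other way: Atp6v0a2 averaged 39.8 CPM (SD 4.04, n = 3) in KO and 49.3 CPM (SD 1.25, n = 3) in KO_WT, a log2 difference of -0.31 (SE 0.084). In KI 10 of the 18 were higher and 8 lower (median 0.0089), and Atp6ap2 was at 0.17.

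Of 16 genes that sort enzymes to the lysosome 7 were higher and 9 lower in both lines (medians -0.028 in KO and -0.015 in KI), with the receptor Sorcs3 at -0.21 (SE 0.079) in KO and the adaptor Gga1 at 0.23 (SE 0.080) in KI. Of 22 regulators of lysosome number and nutrient signalling, which include TFEB, 9 were higher and 13 lower in KO (median -0.0072) and 12 higher and 10 lower in KI (median 0.015). Tfeb itself had means of 5.52 CPM in KO and 5.55 in KO_WT. In this list Rraga, a small GTPase that recruits mTORC1 to the lysosome, was at 0.17 in KO, and Fnip1 was at -0.27 (SE 0.10) in KI. Of 18 genes of late endosome transport and fusion 12 were higher and 6 lower in KO (median 0.038) and 7 higher and 11 lower in KI (median -0.024). The SNARE Vamp7 was at 0.23 (SE 0.089) in KO and Stx8 at 0.25 (SE 0.075) in KI, and both missed the threshold.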

How the data were processed

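The authors' notes name bcl2fastq 2.17, STAR 2.5.0c and Cufflinks 2.2.1 with build GRCm38, per the submitters' processing notes. Which counter, annotation and strandedness were used is not given in the sources used here. The deposited counts are whole numbers per gene, and the deposited RPKM values from the authors hold the same genes and libraries. Total counts were 31790970 to 36514024 per library.

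Counts were fitted with edgeR 4.0.16 in R 4.3.3: filterByExpr (17441 genes), TMM scaling, and a quasi-likelihood model with 1 mean per group over all 12 libraries (8 residual degrees of freedom; common dispersion equal to a biological variation of 15.7%), with Benjamini-Hochberg adjustment over all genes within a comparison and a threshold of 0.05. The fit was tested on simulated data. Each library is its own animal, and replicates were numbered in accession order.

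The 9 genes, the lists and the naming rule were chosen with earlier results of these data known. The rule names all members, the list gene with the smallest p in either line, the 5 genes closest to Tpp1 over 12 and over 9 libraries, and the genes next to Tpp1 or overlapping a member. Tfeb, Smpd1, Gm15645 and Xist were added with their values known. The fit was repeated with RLE size factors, without a count filter, with DESeq2 1.42.0, limma 3.58.1 with voom weights, limma on log2(RPKM + 0.1) or log2(RPKM + 1), with the compared groups alone, with terms for Y-linked genes, animal number range or regional markers, and with each library left out.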

Additional observations from a re-analysis of the deposited data

Results flagged for a closer look

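The effect on Tpp1 differed between the lines: the log2 difference KI minus KI_WT less that of KO minus KO_WT was 0.80 (SE 0.087). Its mean levels were 79.1 ± 3.13 CPM (KI), 82.3 ± 3.45 (KI_WT), 47.7 ± 1.37 (KO) and 86.3 ± 2.55 (KO_WT), each with its SD over n = 3 libraries. The contrast shares the KO and KO_WT libraries on which Tpp1 was selected, so the value is a description.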

How the results depend on the processing

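The log2 difference of Tpp1 in KO against KO_WT ran from -0.89 to -0.76 over 16 alternatives and that in KI against KI_WT from -0.10 to -0.0055; none of the other 8 genes was called in any of 128 values in either comparison. The number of members called was 0 in place of 1 for KO against KO_WT with the regional marker terms, for KI against KO with the compared groups alone, and for the difference between the lines with the Y-linked term or the regional marker terms; with a library left out it was 0 to 1 for that difference (0 without KI 1, KI 3, KI_WT 1, KI_WT 2, KO_WT 2 or KO_WT 3). The Tpp1 log2 difference itself ran from 0.70 to 0.76 for KI against KO over 16 alternatives and from 0.75 to 0.83 for the difference between the lines over 21. The cause was not tested. Small values that missed the threshold changed sign. In KO against KO_WT, Ppt1 was at 0.012 on log2(RPKM + 0.1) and 0.012 on log2(RPKM + 1), and with regional marker terms Grn was at -0.016 and Kctd7 at -0.082. In KI against KI_WT, log2(RPKM + 0.1) and log2(RPKM + 1) gave 0.0011 and 0.0018 for Cln3, 0.051 and 0.038 for Cln6, and 0.011 and 0.0094 for Mfsd8; no count filter gave 0.0011 for Cln6; regional marker terms gave 0.11 for Cln6, -0.070 for Cln8 and -0.10 for Kctd7. With a library left out, KO against KO_WT ran from -0.076 to 0.033 for Ppt1, -0.17 to 0.010 for Cln3, -0.0067 to 0.16 for Ctsd, -0.039 to 0.17 for Grn and -0.0065 to 0.13 for Kctd7, and KI against KI_WT from -0.13 to 0.045 for Cln3, -0.099 to 0.077 for Cln6, -0.071 to 0.073 for Cln8 and -0.042 to 0.11 for Kctd7. No paired analysis was possible because the replicate numbers follow accession order and each animal has 1 library. Cln6, at 5.38 to 7.43 CPM, and Cln3 have the widest errors among the 9 genes, and 3 animals a group limit what can be detected.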
